A study of Homo sapiens with 6 samples.

Results

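The KLF (Krüppel-like factor) genes described here are 10 transcription factor genes, KLF3, KLF4, KLF5, KLF6, KLF9, KLF10, KLF11, KLF13, KLF15 and KLF16, taken by symbol from a table of 58735 genes. All 10 had enough counts to be tested. RNA came from T47D, an established breast cancer cell line of luminal character, in 3 control libraries (CK in the sample titles) and 3 libraries of treated cells (CQ), and no genotype or added agent beyond this is labelled. The treatment is taken to be fine airborne particulate matter (PM2.5) from the series title and from a protocol that gives 48 h of exposure in the same words for every sample, controls included, so "exposed" is used in that sense. No dose is stated in those sources, and 1 cell line was used.

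KLF proteins share a block of zinc fingers at the C-terminus that reads GC-rich DNA of the GC box and CACCC type, while their N-termini differ and recruit different partners. KLF2, KLF4, KLF5, KLF6 and KLF7 bind acetyltransferases and mostly activate genes, KLF3, KLF8 and KLF12 bind the corepressor CtBP, and KLF9, KLF10, KLF11, KLF13, KLF14 and KLF16 bind the corepressor SIN3A. In epithelia they are known for the balance of proliferation and differentiation, and several are fast responders to hormones, growth factors or stress. KLF9 was isolated as a protein that binds the basic transcription element, a GC box of the CYP1A1 promoter.

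The stretches just before the RefSeq starts of these genes are shown first, and their part in any change of RNA was not tested. RefSeq windows (GRCh38.p14) were found for 8 of the 10 genes, KLF3 and KLF10 being without one, and 250 bases before each start were searched. The windows printed are those of KLF11 and KLF15, which had the largest rises, of KLF4, of KLF16, which was lower, and of KLF9, whose window is rich in A and T. Bases in annotated exons (GENCODE 29) are left out. By the gene coordinates given below, the printed stretches of KLF4 and KLF11 lie inside the annotated gene. Those of KLF9, KLF15 and KLF16 lie before it. A motif "before" a gene here means before one of its RefSeq starts. Capitals mark the GC box (GGGCGG), the core bound by the aryl hydrocarbon receptor, AhR (GCGTG), and the E-box (CACGTG), on either strand.
KLF11, chr2:10043971-10044174, plus strand, before the downstream of its RefSeq starts: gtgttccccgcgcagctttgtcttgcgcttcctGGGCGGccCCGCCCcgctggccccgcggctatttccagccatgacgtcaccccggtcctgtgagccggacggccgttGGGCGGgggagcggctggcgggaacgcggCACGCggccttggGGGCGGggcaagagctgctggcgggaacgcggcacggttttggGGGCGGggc
KLF15, chr3:126357443-126357658, minus strand: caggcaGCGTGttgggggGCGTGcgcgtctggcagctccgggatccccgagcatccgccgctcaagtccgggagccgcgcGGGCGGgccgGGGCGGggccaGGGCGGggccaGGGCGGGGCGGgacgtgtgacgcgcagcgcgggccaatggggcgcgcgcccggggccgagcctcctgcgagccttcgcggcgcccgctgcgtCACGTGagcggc
KLF4, chr9:107489770-107490019, minus strand: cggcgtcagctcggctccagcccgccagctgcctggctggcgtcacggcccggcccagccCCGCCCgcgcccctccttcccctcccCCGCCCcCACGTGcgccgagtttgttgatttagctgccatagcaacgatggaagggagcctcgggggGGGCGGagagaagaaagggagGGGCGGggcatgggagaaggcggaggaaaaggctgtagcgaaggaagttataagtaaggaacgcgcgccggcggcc
KLF16, chr19:1863580-1863829, minus strand: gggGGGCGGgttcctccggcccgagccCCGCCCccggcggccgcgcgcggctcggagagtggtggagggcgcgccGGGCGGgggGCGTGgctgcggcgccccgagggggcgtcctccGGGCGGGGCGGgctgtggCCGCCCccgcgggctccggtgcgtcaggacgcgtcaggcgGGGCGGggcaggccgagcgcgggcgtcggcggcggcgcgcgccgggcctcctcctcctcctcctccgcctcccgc
KLF9, chr9:70414658-70414907, minus strand: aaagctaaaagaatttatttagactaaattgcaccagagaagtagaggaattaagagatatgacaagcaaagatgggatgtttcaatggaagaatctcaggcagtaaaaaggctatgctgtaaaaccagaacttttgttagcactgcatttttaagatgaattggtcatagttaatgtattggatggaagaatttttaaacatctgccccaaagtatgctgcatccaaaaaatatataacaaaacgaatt

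The counts that follow are over the full windows of every start of the 8 genes, including windows and exonic bases that are not printed. The GC box, the kind of element that KLF proteins themselves bind, lay in the windows of 7 of the 8 genes with one. The windows of KLF15 and of the downstream KLF11 start held 6 matches each, and that of KLF16 held 7. Among 11243 tested genes with a window, 73.3% held it. The AhR core lay before 5 of the 8 genes (KLF6, KLF11, KLF13, KLF15 and KLF16) against 52.5% of tested genes. The E-box lay before 4 of the 8 (KLF4, KLF6, KLF11 and KLF15) against 11.3% of tested genes. In KLF11 it lay only before the upstream start, in a window that is not printed and has 180 of 250 bases in annotated exons. The antioxidant response element core (TGACNNNGC) lay before KLF15 alone among the 8, where it overlaps the E-box, against 15.8% of tested genes, the CACCC letters before 3 of the 8 against 66.1%, and the full palindromic estrogen response element before none, against 0.0267%. The 10 windows of these genes had a median GC content of 73.4% (32.4% in KLF9 to 86.4% in KLF16) against 64.4% in windows of tested genes, and GC-rich motifs are found more often in GC-rich windows. These are matches of letters in one window and not tested sites.

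**Figure D1:**
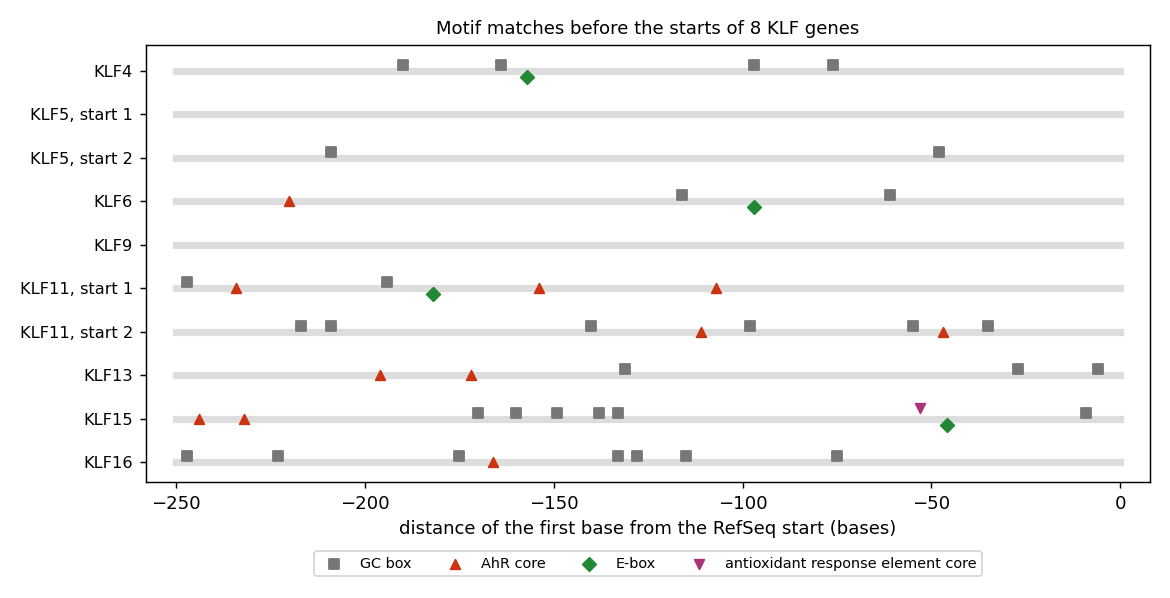
Positions of motif matches in the 250 bases before each RefSeq start of 8 KLF genes (x axis, bases from the start to the first base of the match), on either strand. GC boxes lie before 7 of the 8 genes, E-boxes before KLF4, KLF6, KLF11 and KLF15, and the windows of KLF9 and of the first KLF5 start hold none of the 4 motifs drawn.

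The question put to the libraries is whether the RNA of these factors changed with exposure. In exposed cells 8 of the 10 KLF genes rose, KLF16 was lower and KLF10 did not pass, in the quasi-likelihood test of edgeR, Benjamini-Hochberg adjusted over 17337 genes, at a threshold of 0.05. The rises ran from 1.40-fold in KLF9 to 2.81-fold in KLF11 and 4.47-fold in KLF15. Of all genes tested, 43.9% passed, 21.8% higher and 22.1% lower. The median log2 fold change of the 10 genes was 0.86, against -0.02 for all genes tested. The libraries of the groups did not overlap for 9 of the 10 genes, against 51.9% of all genes. The gene choice was made with results of these data known, so these counts are a description.

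**Figure D2:**
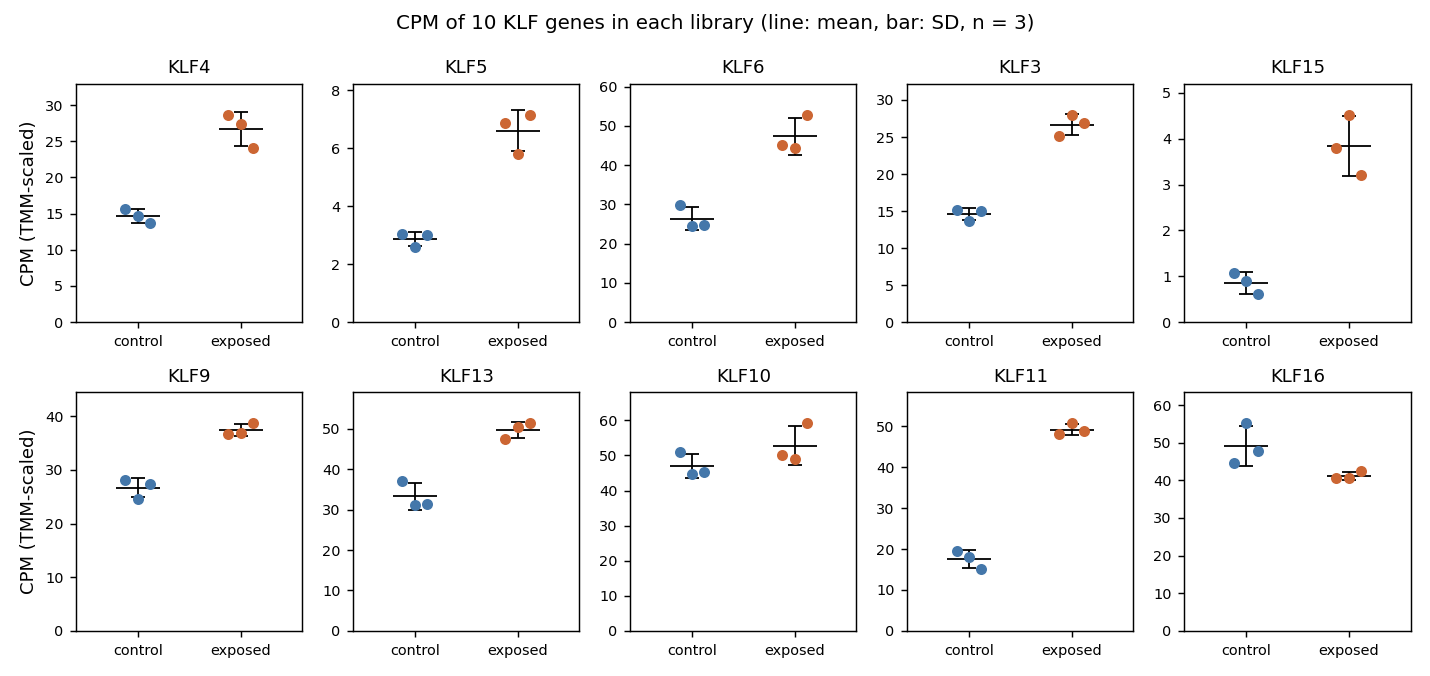
CPM (counts scaled to library size with TMM factors, y axis from 0) of each KLF gene in 3 control and 3 exposed libraries, with the mean as a line and the SD as a bar. In 8 genes every exposed point lies above every control point, in KLF16 every exposed point lies below, and in KLF10 the groups overlap.

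The libraries held 30970218 to 36878525 counts. Luminal epithelial markers were abundant in all of them, with a summed level of 19209 to 21079 CPM in controls and 8122 to 10136 CPM in exposed libraries, and 6 of the 9 markers were lower in exposed cells (KRT8, KRT18, KRT19, FOXA1, ESR1 and PGR) while EPCAM, CDH1 and GATA3 did not pass. Of 12 markers of blood, endothelium, fibroblasts and muscle, 8 were under 1 CPM in both groups, none was at 0 in all libraries, and their sum was 69.7 to 79.0 CPM in controls and 79.2 to 82.3 CPM in exposed libraries, most of it the collagen gene COL1A1. The part of these shifts in the KLF results was not tested. In bulk RNA, fewer cells that express a gene and less RNA of it per cell cannot be told apart.

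Among the genes whose products bind acetyltransferases, KLF4, KLF5 and KLF6 all rose. KLF4 (ENSG00000136826, chromosome 9, 107484852 to 107490482, minus strand), a factor of epithelial differentiation and of pluripotency reprogramming, had 15.6, 14.7 and 13.7 CPM in control replicates 1 to 3 and 28.7, 27.4 and 24.1 CPM in exposed replicates 1 to 3. Every exposed library was above every control. The change was 1.82-fold, or 0.86 ± 0.10 on the log2 scale (SE), with an adjusted p of 4.2e-08 in edgeR's quasi-likelihood test.

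KLF5 (ENSG00000102554, chromosome 13, 73054976 to 73077542, plus strand), which drives proliferation in basal and intestinal epithelium, stood low in these luminal cells. It had 3.03, 2.59 and 2.99 CPM in control replicates 1 to 3 and 6.86, 5.81 and 7.15 CPM in exposed replicates 1 to 3, with no overlap. Its rise was 2.30-fold (log2 1.20 ± 0.17, SE; edgeR adjusted p = 7.8e-07). KLF4 and KLF5 often act in opposite ways on the same promoters, and both were higher here: the ratio of KLF4 to KLF5 per exonic length was 5.47 ± 0.586 (SD, n = 3) in controls and 4.35 ± 0.719 in exposed libraries, and the ranges of the ratio overlapped between the groups.

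KLF6 (ENSG00000067082, chromosome 10, 3775996 to 3785281, minus strand), a ubiquitous factor known as an early responder to injury and as a growth suppressor, had 29.7, 24.4 and 24.8 CPM in control replicates 1 to 3 and 45.0, 44.4 and 52.8 CPM in exposed replicates 1 to 3. Exposed replicate 3 was the highest, and the lowest exposed library lay above the highest control. Its rise was 1.80-fold (log2 0.85 ± 0.10, SE; edgeR adjusted p = 1.5e-08).

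KLF3 (ENSG00000109787, chromosome 4, 38664196 to 38701042, plus strand), a repressor that works through CtBP and is known for its part in fat and red cell development, rose from 15.1, 13.7 and 15.04 CPM in control replicates 1 to 3 to 25.1, 28.01 and 26.8 CPM in exposed replicates 1 to 3. The groups lay far apart next to the spread within them. The change was 1.82-fold (log2 0.87 ± 0.10, SE; edgeR adjusted p = 2.3e-08). An antisense gene, KLF3-AS1, overlaps 266 of its 6297 exonic bases on the other strand and had 4 to 13 counts a library, against 475 to 968 for KLF3. KLF11 and KLF16 share 416 of 4589 and 483 of 2955 exonic bases with genes on the other strand that had 0 counts. How reads in these overlaps were counted was not tested.

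The genes of the SIN3A-binding group moved apart. KLF11 (ENSG00000172059, chromosome 2, 10042849 to 10054836, plus strand) encodes a TGF-beta-inducible repressor linked to beta-cell function. It had 19.5, 18.0 and 15.1 CPM in control replicates 1 to 3 and 48.1, 50.7 and 48.8 CPM in exposed replicates 1 to 3. All exposed libraries lay far above all controls. The rise was 2.81-fold (log2 1.49 ± 0.10, SE; edgeR adjusted p = 7.1e-14), and 1.47% of all tested genes had a higher log2 fold change.

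KLF10 (ENSG00000155090, chromosome 8, 102648779 to 102655902, minus strand), its closest relative and the founding TGF-beta-inducible early gene, differed from that. KLF10 had 51.0, 44.7 and 45.3 CPM in control replicates 1 to 3 and 50.2, 49.0 and 59.1 CPM in exposed replicates 1 to 3, and the groups overlapped. Its log2 fold change was 0.17 with a 95% interval of -0.01 to 0.35 (edgeR adjusted p = 0.13, range over the alternative settings 0.029 to 1). It passed under 1 of 16 alternative settings, a correction for GC content and length (0.19, adjusted p = 0.029). Per exonic length, the ratio of KLF11 to KLF10 in replicates 1 to 3 was 0.334, 0.351 and 0.291 for the controls and 0.836, 0.903 and 0.721 for the exposed libraries, so the pair came closer to equal levels without reaching them. This pair was chosen after its values were seen.

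KLF9 (ENSG00000119138, chromosome 9, 70384597 to 70414624, minus strand), induced by glucocorticoid and thyroid hormone and a partner of the progesterone receptor in the uterus, had 28.03, 24.6 and 27.3 CPM in control replicates 1 to 3 and 36.8, 36.8 and 38.7 CPM in exposed replicates 1 to 3. The exposed libraries lay close together and above all controls. The rise was 1.40-fold (log2 0.49 ± 0.09, SE; edgeR adjusted p = 5.2e-05). KLF13 (ENSG00000169926, chromosome 15, 31326855 to 31435665, plus strand), a close relative of KLF9 that regulates RANTES in T cells, went from 37.2, 31.2 and 31.5 to 47.5, 50.4 and 51.4 CPM. It too had no overlap, and rose 1.49-fold (log2 0.58 ± 0.09, SE; edgeR adjusted p = 3.5e-06). Neither rise passed a test against a 1.5-fold change, whereas the other 6 rises did.

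KLF16 (ENSG00000129911, chromosome 19, 1852399 to 1863568, minus strand), a small SIN3A-binding repressor first studied in the brain, was lower, and its call was fragile. It had 44.6, 55.1 and 47.8 CPM in control replicates 1 to 3 and 40.5, 40.5 and 42.4 CPM in exposed replicates 1 to 3. The gap between the lowest control and the highest exposed library was narrow beside the spread of the controls, among which replicate 2 was the highest. The log2 fold change was -0.26 ± 0.09 (SE; edgeR adjusted p = 0.019, range over the alternative settings 5.7e-04 to 1). The call ended without control replicate 2 (-0.17, adjusted p = 0.12), exposed replicate 1 (-0.24, 0.055) or exposed replicate 2 (-0.24, 0.06).

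KLF15 (ENSG00000163884, chromosome 3, 126342635 to 126357442, minus strand), a glucocorticoid-induced factor of amino acid and glucose metabolism, had the largest fold and the lowest level. In control replicates 1 to 3 it had 40, 31 and 22 counts and in exposed replicates 1 to 3 it had 129, 140 and 116, or 1.07, 0.893 and 0.604 against 3.80, 4.52 and 3.22 CPM. The exposed libraries lay well above the controls, with no overlap. The rise was 4.47-fold (log2 2.16 ± 0.26, SE; edgeR adjusted p = 2.9e-08), and 0.479% of tested genes had a higher log2 fold change. The low counts show in its SE, the widest of the 10.

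**Figure D3:**
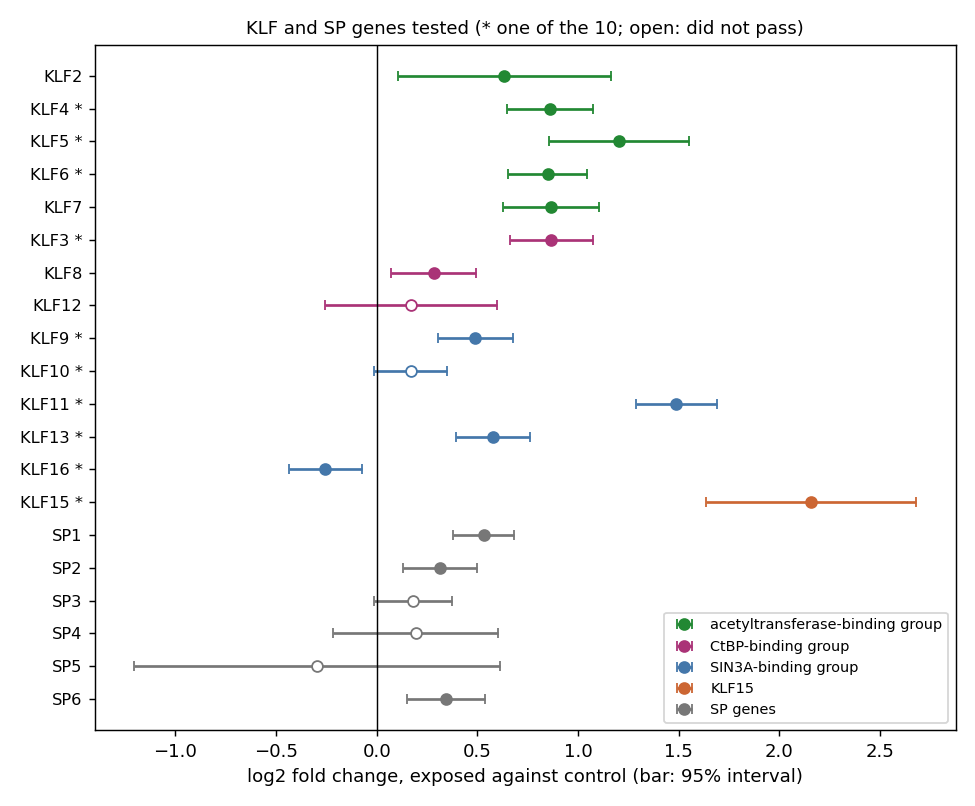
Log2 fold changes of exposed against control (x axis) with 95% intervals for the 14 KLF and 6 SP genes tested, coloured by the partner group of the protein. KLF15 and KLF11 lie farthest to the right at 2.16 and 1.49, KLF16 is the only filled point left of 0, and open points did not pass.

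Dividing by exonic length (RPKM, that is CPM per kilobase of exon) allows an approximate comparison of levels between genes. The length is the union of annotated exons, which exceeds the longest transcript in KLF13 (9409 against 6825 bases) but not in KLF9 (5175 for both). The order of the genes, their shares and the ratios between them rest on this length, and other lengths were not tried. In controls KLF16 and KLF10 led with 16.6 ± 1.82 and 11.7 ± 0.867 RPKM (SD, n = 3), followed by KLF9 at 5.15, KLF6 at 4.29, KLF4 at 4.02, KLF11 at 3.82, KLF13 at 3.54, KLF3 at 2.32, KLF5 at 0.737 and KLF15 at 0.301 RPKM. From KLF9 down to KLF13 each gene overlapped its neighbour in this order, while the other neighbours were apart.

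In exposed cells KLF16 and KLF10 still led, at 13.9 ± 0.368 and 13.2 ± 1.38 RPKM (SD, n = 3), but now overlapped. KLF11 had moved from the sixth to the third place with 10.7 ± 0.289 RPKM. Then came KLF6 at 7.72, KLF4 at 7.30 and KLF9 at 7.23, each overlapping its neighbour, and KLF13 at 5.29, KLF3 at 4.24, KLF5 at 1.70 and KLF15 at 1.35 RPKM, of which only KLF5 and KLF15 overlapped. KLF16 and KLF10 made up 51.4% to 56.3% of the summed RPKM of the 10 genes in control libraries and 36.2% to 38.8% in exposed libraries, and KLF11 6.50% to 7.86% and 14.2% to 15.4%. The summed level was 50.6 to 54.1 RPKM in controls and 71.2 to 75.1 RPKM in exposed libraries.

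**Figure D4:**
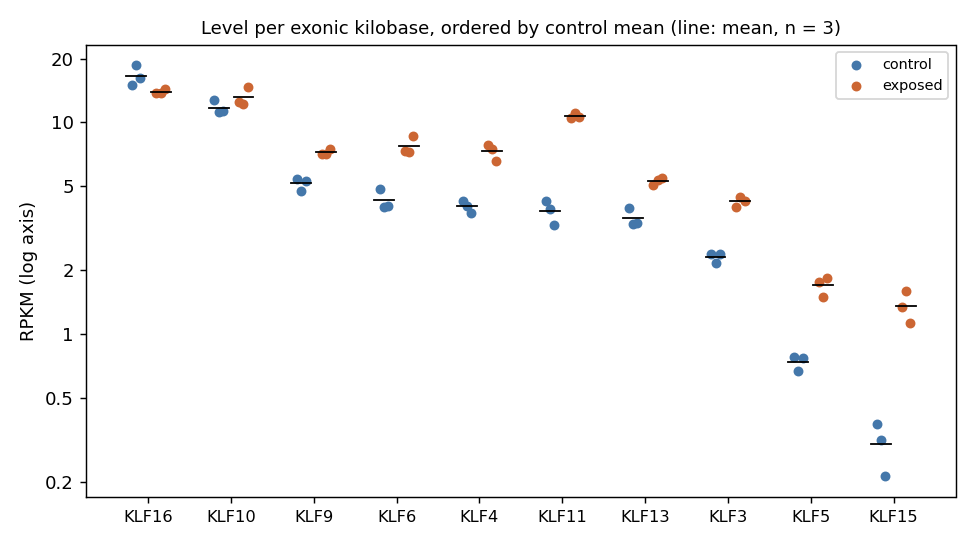
Level of each KLF gene per exonic kilobase (RPKM, log axis) in 3 control and 3 exposed libraries, with lines at the means and genes ordered by the control mean. KLF16 and KLF10 are highest in both groups, and KLF11 moves from among KLF4 and KLF13 at 3.82 RPKM to just under KLF10 at 10.7 RPKM.

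The other 8 KLF genes of the genome were mostly low or silent in these cells. KLF1, the erythroid factor, KLF14, KLF17 and KLF18 had too few counts to be tested, and KLF17 had none. Of the 4 that could be tested 3 passed, all higher. KLF7, an activator related to KLF6, rose from 8.97 ± 0.454 to 16.3 ± 1.36 CPM (SD, n = 3 per group; log2 0.87 ± 0.12, SE; edgeR adjusted p = 3.6e-07), with no overlap. KLF8, a CtBP-binding factor, had 24.4 ± 2.53 and 29.7 ± 3.47 CPM (n = 3 per group), and its groups overlapped. KLF8 passed with a log2 fold change of 0.28 (edgeR adjusted p = 0.025), and lost the call without control replicate 2 (adjusted p = 0.085) or 3 (0.09) and without exposed replicate 2 (0.064) or 3 (0.13). KLF2, a flow-induced factor of endothelium, stood at 1.66 ± 0.338 and 2.59 ± 0.830 CPM (n = 3 per group; edgeR adjusted p = 0.047) and overlapped, and its call ended without control replicate 1 (adjusted p = 0.16) or 2 (0.086) and without exposed replicate 1 (0.059) or 2 (0.31). Its processed copy KLF2P1 had fewer counts in every exposed library than in any control, with 73, 80 and 99 counts in the controls and 37, 66 and 23 in the exposed libraries (replicates 1 to 3), and whether reads were divided between the copies was not tested. KLF12, which binds CtBP, stood at 3.22 ± 0.747 and 3.62 ± 0.775 CPM (n = 3 per group), a difference that did not pass (log2 0.17, 95% interval -0.26 to 0.60).

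Counted over the family, 11 of 14 tested KLF genes rose, 1 was lower and 2 did not pass, against 21.8% higher and 22.1% lower among all genes, with a median log2 fold change of 0.74. The 11 include KLF2 and KLF8, whose groups overlapped and whose calls were lost without single libraries, and the lower gene is KLF16, whose call was also lost that way. The partner groups are those listed above, which leave out KLF1 and KLF15, and only tested genes are counted. Of the acetyltransferase-binding genes 5 of 5 passed as higher, KLF2 among them (median 0.86). Of the CtBP-binding genes 2 of 3 passed as higher, KLF8 among them (median 0.28). Of 5 SIN3A-binding genes 3 rose and 1 was lower (median 0.49). No test of a difference between these groups was made.

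The SP genes encode the sister branch, with the same kind of zinc fingers and GC box binding. Of 9, 6 could be tested, and 3 of them (50%, against 43.9% of all genes) passed, each higher by less than 1.5-fold. SP1, the ubiquitous activator, went from 107 ± 6.74 to 155 ± 5.15 CPM (SD, n = 3 per group; log2 0.53 ± 0.07, SE; edgeR adjusted p = 6.4e-07). SP2 was at 0.31 and SP6, an epithelial factor, at 0.34 on the log2 scale, and SP3, SP4 and SP5 did not pass, at 0.18, 0.19 and -0.30. The median of the 6 was 0.25.

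Genes whose products act with, on or above KLF proteins did not share one direction. Of 15 cofactor genes 3 rose and 2 fell, or 33.3% against the 43.9% of all genes, with a median of -0.03. HDAC1, a deacetylase of the SIN3 complex, fell from 141 ± 3.18 to 97.7 ± 2.04 CPM (SD, n = 3 per group; log2 -0.52 ± 0.07, SE; edgeR adjusted p = 5.0e-07), and KDM1A, the histone demethylase LSD1, fell by 0.29 on the log2 scale. SIN3B rose by 0.45 and the acetyltransferase CREBBP by 0.29. SIN3A and CTBP1 themselves did not pass (-0.18 and -0.04).

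Of 11 tested genes for turnover of KLF proteins 4 rose and 1 fell (45.5%, close to the 43.9% of all genes). Their median was 0.04. SIAH1, a ubiquitin ligase that targets KLF10, rose from 3.72 ± 0.646 to 9.17 ± 0.704 CPM (SD, n = 3 per group; log2 1.30 ± 0.16, SE; edgeR adjusted p = 4.2e-08). SMURF1, another ligase, rose by 0.62, and BAP1, a deubiquitinase of KLF5, by 0.26 on the log2 scale. FBXO32, an F-box protein, fell by 0.73. The KLF5 ligases WWP1 and FBXW7 did not pass, at -0.18 and -0.08.

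Of 17 tested genes for receptors and factors known to induce KLF genes, 5 rose and 8 fell (76.5%, against 43.9% of all genes). Their median was 0.02. The progesterone and estrogen receptor genes PGR and ESR1 fell by 1.46 and 1.31 on the log2 scale. NR3C1, the glucocorticoid receptor and the main inducer of KLF9 and KLF15, stood at 6.98 ± 0.659 and 8.37 ± 1.96 CPM (SD, n = 3 per group), which did not pass (log2 0.26, 95% interval -0.05 to 0.57; edgeR adjusted p = 0.18). MEF2D, one of the MEF2 factors that induce KLF2 and KLF4, rose from 58.6 ± 2.20 to 152 ± 6.11 CPM (n = 3 per group; log2 1.37 ± 0.08, SE; edgeR adjusted p = 1.1e-15).

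Reported targets of KLF proteins likewise moved both ways, 8 of 30 higher and 9 lower (56.7%, against 43.9% of all genes). Their median was 0.07. CYP1A1, whose promoter holds the element bound by KLF9, rose by 10.39 ± 0.13 on the log2 scale (SE). Whether KLF9 had any part in this rise was not tested. The stress factor ATF3 was at 1.56 and the cyclin CCND1 at -1.34, and both passed. SMAD7, repressed by KLF10 and KLF11, fell by 0.61 ± 0.15 on the log2 scale (SE; edgeR adjusted p = 0.0013). CDKN1A, the p21 gene that KLF4 and KLF6 activate, stood at 94.3 ± 8.68 and 105 ± 5.27 CPM (SD, n = 3 per group), which did not pass (log2 0.16, 95% interval -0.01 to 0.32), and TXNRD2, a mitochondrial thioredoxin reductase that KLF9 represses, was at -0.20 without passing. CDKN1A passed without control replicate 2 (0.24, edgeR adjusted p = 0.0078) and TXNRD2 without control replicate 1 (-0.28, edgeR adjusted p = 0.013).

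**Figure D5:**
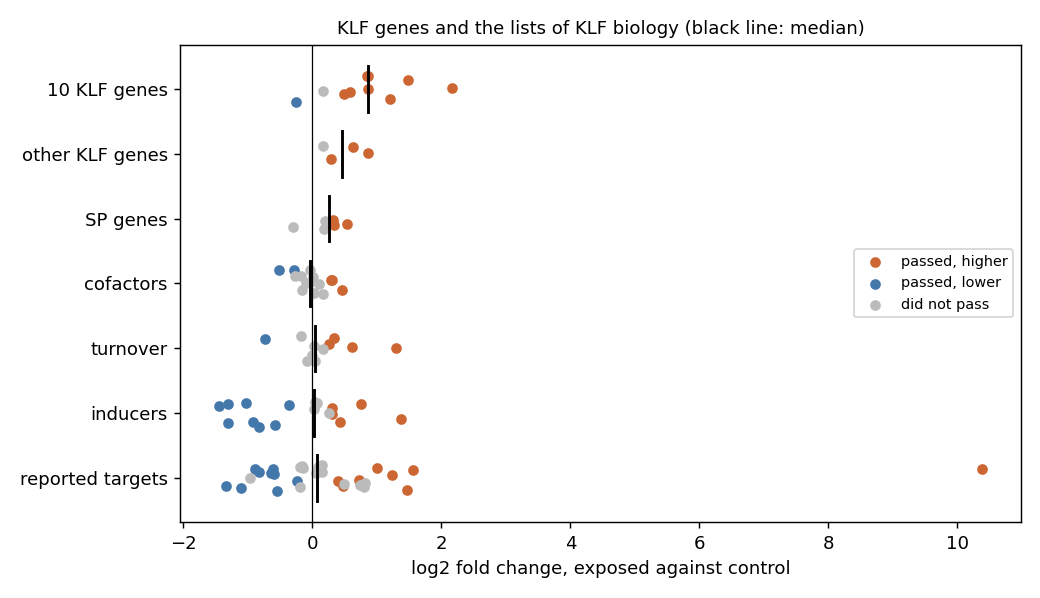
Log2 fold changes (x axis) of the tested genes in 7 lists, with the median of each list as a black line and points coloured by whether they passed and in which direction. The 10 KLF genes lie mostly right of 0 with a median of 0.86, the other KLF and SP genes at 0.46 and 0.25, and the cofactor, turnover, inducer and target lists at medians between -0.03 and 0.07 (CYP1A1 is the point at 10.39).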

How the data were processed

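The authors deposited whole-number read counts per gene for 6 libraries, with a length per gene. Labels name TRIzol extraction, an NEBNext Ultra kit and an Illumina NovaSeq instrument, and the genome build is GRCh38 per the submitters' processing notes. The sources used here give no aligner, counter or strand setting. All 58735 gene IDs were found in GENCODE 29. Sample titles gave the groups and replicate numbers. The design text calls the replicates biological without saying that cultures were separate, so p-values may measure technical spread only. No libraries held identical values, and 26945 genes had no counts.

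In R 4.3.3, edgeR 4.0.16 kept 17337 genes (filterByExpr, minimum count 10, minimum total 15), applied TMM scaling and a robust quasi-likelihood fit, exposed against control. The threshold was an adjusted p of 0.05 (Benjamini-Hochberg, over all genes), and the biological coefficient of variation was 9.61%. SE is the log2 fold change divided by the square root of F, CPM and RPKM use TMM-scaled library sizes, and RPKM uses the length in the table, which equals the union of GENCODE 29 exons for 58724 genes. The procedure was tested on simulated data. Named genes are the 10 members, tested KLF and SP genes, up to 4 genes per list with the smallest adjusted p, and 11 genes whatever their result. Some genes that this rule takes are not reported here. The untested KLF genes, luminal and collagen markers, KLF3-AS1 and KLF2P1 are named as context. The members and lists were chosen with earlier results of these data known. Motifs were searched on both strands of RefSeq windows.

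The alternatives tried were DESeq2-type size factors, DESeq2 1.42.0, limma-voom (limma 3.58.1), no filter, a mean of at least 1 CPM, a block for the replicate number, removal of 1 library at a time, protein-coding genes alone, removal of mitochondrial genes, a test against a 1.5-fold change and, added after seeing the data, a correction for GC content and transcript length.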

Additional observations from a re-analysis of the deposited data

How the results depend on the processing

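The 8 KLF rises were counted as 8 under 15 of 16 alternatives, with 6 in the test against a 1.5-fold change, and without each library in turn the count was 8. The 1 lower KLF gene, KLF16, was not called with the replicate block (0 called, adjusted p = 0.052) or against a 1.5-fold change (0 called), and without 1 library the count ran from 0 to 1. The count of other KLF genes fell from 3 to 1 with the replicate block, which ended the calls of KLF8 (adjusted p = 0.062) and KLF2 (0.084). It was 1 against a 1.5-fold change and 1 to 2 without 1 library. Without control replicate 2, the 2 called were 1 higher and 1 lower. The lower one was not among the 14 KLF genes tested with all libraries. Of the untested genes, KLF1 had 15, 2 and 16 counts in control and 4, 1 and 6 in exposed replicates 1 to 3. KLF14 had 10, 4 and 8 counts against 2, 2 and 6. Over the 14 tested KLF genes the replicate block called 9 higher and 0 lower, against 11 and 1. The KLF2 call also ended in DESeq2, limma-voom and the GC correction (adjusted p = 0.065, 0.081 and 0.067). Against a 1.5-fold change, by construction a stricter question, 0 SP genes, 0 cofactor genes, 1 turnover gene, 6 inducers, 7 reported targets and 1498 genes in all passed. SP4 and CTBP1, which did not pass, changed sign without control replicate 2 (log2 -0.056 and 0.0054), and without 1 library they ran from -0.056 to 0.384 and from -0.067 to 0.0054. SP3, NR3C1 and TXNRD2 passed with the GC correction (adjusted p = 0.0081, 0.047 and 0.0015), SP3 also without exposed replicate 1 (0.024), and WWP1 and SIN3A without control replicate 2 (0.02 and 0.042). Causes were not tested except where named. Same-numbered libraries did not deviate together across groups (r = -0.074, -0.080 and 0.005), and no library correlated best with its own number. The numbers were therefore not taken as pairs, and the block changed no call among the 10 KLF genes other than that of KLF16. Low counts limit KLF15, KLF2 and KLF12, and SP5 among the SP genes.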
